A study of Mus musculus with 2 samples.

Results

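The proteasome gene set of mouse erythroblasts was taken by name. A gene was included when it was protein-coding, present in both gene tables, and carried a GENCODE mouse symbol beginning with Psma, Psmb, Psmc, Psmd, Psme, Psmf or Psmg. The rule gave 50 genes of 21461 nuclear protein-coding genes. Of these, 48 encode known subunits, activators, assembly chaperones or the regulator Psmf1. Psmc3ip, a cofactor of meiotic recombination, and Psme2b, a near copy of Psme2, met the rule by symbol without being listed subunits.

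The series profiled total RNA of erythroblasts, the immature red cells that still hold a nucleus, in 2 libraries that form 1 group. Per the labels, the cells were primary cells from adult male C57BL/6J mice 5 to 6 weeks old, with no treatment or genetic change named. Input was 1 ng of RNA per library, spike-ins were added, and the libraries carry separate biosamples under 1 donor entry. The labels do not say that the cells came from separate animals, so the spread between the libraries may be technical. With 1 group there was no contrast to test, and every value is given per library or as mean ± SD (n = 2).

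The 26S proteasome degrades proteins tagged with ubiquitin. Its 20S core is a barrel of alpha and beta rings in which 3 beta subunits cut peptide bonds, and its 19S cap binds, unfolds and feeds in the substrate. In immune cells and in cells exposed to interferon, the 3 catalytic subunits are exchanged for immunoproteasome forms, which alter the peptides made. Other particles, the PA28 and PA200 activators, can open the barrel in place of the cap, and developing red cells use ubiquitin and the proteasome to remove proteins as they mature.

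Levels are given as rescaled TPM, which is TPM (a level corrected for transcript length and library size) scaled so that the nuclear protein-coding genes of a library sum to 1000000. The libraries held 80804845 and 117026201 counts, but rRNA of the mitochondrion made up 78.3% and 78.5% of TPM, and the counts of nuclear protein-coding genes were 5.44% and 5.82% of the total. The members held 16249 counts in replicate 1 and 27092 in replicate 2. All 10 erythroid marker genes were detected, and globins alone took 43.8% and 43.5% of nuclear protein-coding TPM. All 10 neutrophil markers were detected as well, with a summed rescaled TPM of 43347 in replicate 1 and 45799 in replicate 2, against 378399 and 373304 for the erythroid list. Most of the erythroid sum was globin: Hbb-bs (145781 and 153043), Hba-a1 (65371 and 60669) and Hba-a2 (153025 and 146050). The highest erythroid marker other than these was Slc4a1, at 5562 and 5083. The highest neutrophil marker, S100a9, stood at 14200 and 16292. All 8 monocyte and macrophage markers were detected (summed 4445 and 4744), as were the 5 of basophils, mast cells and eosinophils (787 and 633) and the 4 of megakaryocytes (76.8 and 105). Stem and progenitor markers were detected for 3 of 4 genes (92.6 and 98.3). T and NK markers were detected for 2 of 6 (117 and 133). These were Nkg7 (108 and 126) and Cd4 (7.06 and 6.47), while Cd3d and Cd8a were at 0. B lineage markers were detected for 1 of 6 (12.6 and 17.5), which was Cd79b (10.9 and 16.5), with Ebf1 among those at 0. In such bulk samples, fewer cells of a type and less RNA per cell cannot be told apart. The part that RNA of leukocytes may have in the levels of the proteasome genes was not tested.

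Stretches upstream of 2 genes are shown first. Psme3 was the most abundant member of the set, and Psmb5 is the constitutive catalytic subunit whose level differed least between the libraries. The sequences are those of RefSeq on build GRCm38.p6 (mm10), 250 bases upstream of the RefSeq start and written 5′ to 3′ on the gene's strand. The Psme3 stretch is chr11:101315963-101316212 on the + strand and ends at the base before the GENCODE gene. The Psmb5 stretch is chr14:54617996-54618245 on the - strand and runs a short way into the first GENCODE exon. Capitals mark an ETS core (CCGGAAG) and a CCAAT box on the reverse strand (ATTGG) in Psme3, and the core of an antioxidant response element (TGACNNNGC) in Psmb5.
Psme3: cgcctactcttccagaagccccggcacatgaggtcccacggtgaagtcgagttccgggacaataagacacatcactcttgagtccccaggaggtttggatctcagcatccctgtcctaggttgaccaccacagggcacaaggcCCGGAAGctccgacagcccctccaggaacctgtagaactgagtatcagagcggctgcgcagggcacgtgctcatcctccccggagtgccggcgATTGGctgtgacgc
Psmb5: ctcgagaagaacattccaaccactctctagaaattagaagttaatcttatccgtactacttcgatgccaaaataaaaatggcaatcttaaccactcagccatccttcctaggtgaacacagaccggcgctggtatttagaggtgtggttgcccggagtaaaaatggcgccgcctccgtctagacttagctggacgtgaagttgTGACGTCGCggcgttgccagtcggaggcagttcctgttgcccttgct

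Motifs were searched on both strands of the same 250 bases for the 42 members with a RefSeq window, beside 16317 coding genes. The antioxidant response element core, bound by the factors Nfe2l1 and Nfe2l2 that control proteasome genes, was present for 5 of 42 members (11.9%) and for 12.3% of coding genes. The 5 members were Psmb5, Psmb6, Psmc6, Psmd12 and Psmd9. The core of the interferon-stimulated response element was present for Psmb3, Psmd4 and Psmd9, which is 7.14% of members against 3.52% of coding genes. The gamma-activated sequence (TTCNNNGAA) was present for Psmb8 and Psmg1, or 4.76% against 7.75%. CCAAT boxes were present for 15 members (35.7%, against 39.2%), and the GATA motif AGATAA for Psmd9 and Psmf1 (4.76%, against 10.0%). The ETS core CCGGAAG, which was added after its count was seen, was present for 13 members (31.0%) and for 10.6% of coding genes. A match describes letters in the window and is neither a binding site nor a cause of any level.

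Nearly the whole gene set was present in the RNA. A rescaled TPM of 1 or more in both libraries was reached by 48 of the 50 members (96%), against 42.9% of nuclear protein-coding genes, and 10 or more by 45 members, against 23.1%. The median of the 50 members was 44.7 in replicate 1 and 44.1 in replicate 2. Among genes detected in both libraries, the median was 14.5 in each library, and 39 of the 50 members lay above it in both. No share of all genes above it in both libraries is given beside this count. The members together held 0.356% of nuclear protein-coding TPM in replicate 1 and 0.382% in replicate 2. Members that were high in one library were mostly high in the other, with a Pearson correlation of log2 rescaled TPM of 0.863 and a Spearman correlation of 0.798 across the 48 detected genes. These points share the libraries and their depth, and genes are not replicates.

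The 2 members below detection are core subunits known for expression in other tissues. Psma8, an alpha subunit of the testis, had 3 counts in each library, a rescaled TPM of 0.64 and 0.39. Psmb11, the beta subunit of the thymus cortex, had 0 counts in both libraries, and a count of 0 allows up to 3 counts. Psmb11 is the nearest neighbour of Psmb5 on chromosome 14, with a gap of 3410 bases between the genes.

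**Figure D1:**
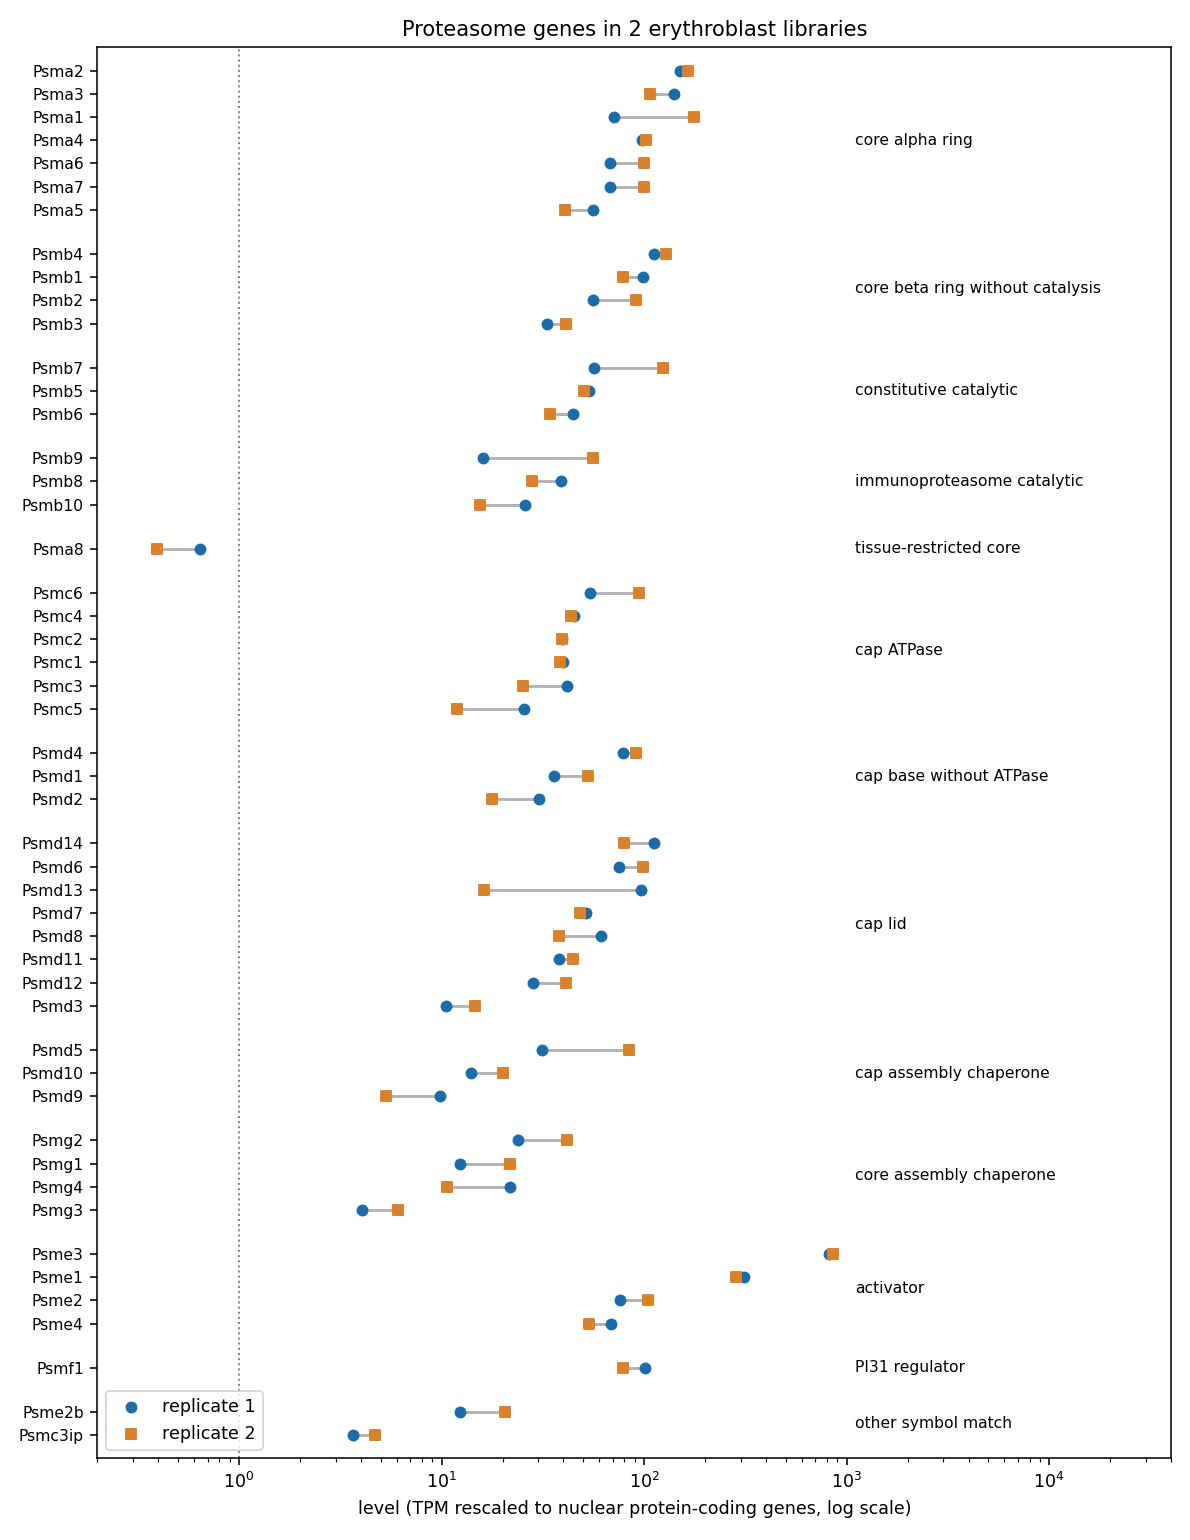
Rescaled TPM (log scale) of the 49 members with any signal, grouped by role, with replicate 1 as circles, replicate 2 as squares and a dotted line at the detection level of 1. Psme3 lies farthest to the right at 816 and 852.5, and Psma8 is the member to the left of the line.

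The alpha ring gates the barrel and is the docking surface for the cap. Its 7 standard subunits ranged from 55.8 to 151 in replicate 1 and from 40.6 to 176 in replicate 2, with medians of 71.0 and 103 rescaled TPM. Psma2 stood at 151 and 165 rescaled TPM, the highest mean of the ring. Psma3 stood at 139.9 and 107, and Psma4 at 97.5 and 103. Those 3 genes were the highest of the ring in replicate 1, whereas Psma1 stood at 71.0 in replicate 1 and 176 in replicate 2. Psma6 and Psma7 had the same level in replicate 1 (67.8 each) and nearly the same in replicate 2 (100.4 and 99.8). Psma5 was the lowest of the ring at 55.8 and 40.6 rescaled TPM.

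The beta subunits without catalytic activity complete the inner rings. Psmb4 led them at 112 and 129 rescaled TPM, and Psmb1 stood at 99.0 and 78.6. Psmb2 stood at 55.8 and 91.0, and Psmb3 had the lowest mean of all 14 standard core subunits, at 33.1 and 41.2 rescaled TPM. The median of the 14 standard core subunits was 67.8 in replicate 1 and 100.1 in replicate 2, or 84.0 ± 22.9 (SD, n = 2). In each library the highest core subunit exceeded the lowest by 4.55-fold and 5.16-fold in rescaled TPM, and 11 of the 14 were at 50 or more in both. No share of all genes at that level is given beside this count. A core with the constitutive catalytic subunits holds all 14 in equal numbers. The coefficient of variation of their rescaled TPM was 45.2% and 46.3%. The alpha ring median exceeded the median of the 7 standard beta subunits by 0.35 and 0.38 on the log2 scale, a difference of the same sign and close in size.

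The catalytic subunits come in pairs, in which an immunoproteasome form takes the place of a constitutive form. Psmb5 (chromosome 14, 54614119 to 54618022), the chymotrypsin-like site, stood at 53.2 rescaled TPM in replicate 1 and 50.6 in replicate 2. Its immunoproteasome counterpart Psmb8 (chromosome 17, 34197721 to 34201454) stood at 38.9 and 28.0. Psmb5 was therefore the higher of the pair in both libraries, by 1.37-fold and 1.80-fold per length. In counts, which are not corrected for length, Psmb8 had 172 and 187 and Psmb5 132 and 197, so their order turned in replicate 1. Psmb6 (chromosome 11, 70525367 to 70527858), the caspase-like site, stood at 44.5 and 34.1, while Psmb9 (chromosome 17, 34181987 to 34187764) stood at 16.0 and 56.1. In rescaled TPM this pair had opposite orders in the libraries, with Psmb6 2.77-fold higher in replicate 1 and Psmb9 1.64-fold higher in replicate 2. In counts, Psmb9 had 24 and 118 and Psmb6 98 and 120, so the order did not turn. Of the Psmb9 level, 74.8% and 85.25% was assigned to Psmb9-202, a transcript of 433 bases with 12.05 and 72.8 counts. Psmb7 (chromosome 2, 38588036 to 38644087), the trypsin-like site, stood at 56.5 and 124, and Psmb10 (chromosome 8, 105935735 to 105938444) at 25.9 and 15.5. Psmb7 was the higher of its pair in both libraries, by 2.18-fold and 7.97-fold.

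Summed over the 3 genes, the immunoproteasome subunits stood at 80.8 and 99.6 rescaled TPM and the constitutive subunits at 154 and 208. The constitutive sum was higher by 1.91-fold in replicate 1 and 2.09-fold in replicate 2, a log2 ratio of immunoproteasome to constitutive of -0.998 ± 0.09 (SD, n = 2). In rescaled TPM the pairs had wider spreads than the sum, with log2 ratios of -0.65 ± 0.28 for Psmb8 over Psmb5, -0.38 ± 1.55 for Psmb9 over Psmb6 and -2.06 ± 1.32 for Psmb10 over Psmb7. In counts, without correction for length, the immunoproteasome subunits held 41.0% of the 6 genes' total in replicate 1 (exact Clopper-Pearson 95% interval 37.4% to 44.7%) and 28.7% in replicate 2 (26.3% to 31.2%). These intervals cover counting error only, since reads were not marked by molecule of origin, and they did not overlap. In CPM the log2 ratio of the sums was -0.92 ± 0.56, a wider spread than the 0.32 of Psmb8 over Psmb5 on that scale. Psmb9 rested on 24 and 118 counts, the fewest of the 6 genes in replicate 1, and its exons share 5.79% of their length with Tap1 on the opposite strand, a gene with 63 and 112 counts. In the same libraries the neutrophil and monocyte marker lists summed to 43347 and 45799 and to 4445 and 4744 rescaled TPM, and their part in these levels was not tested.

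**Figure D2:**
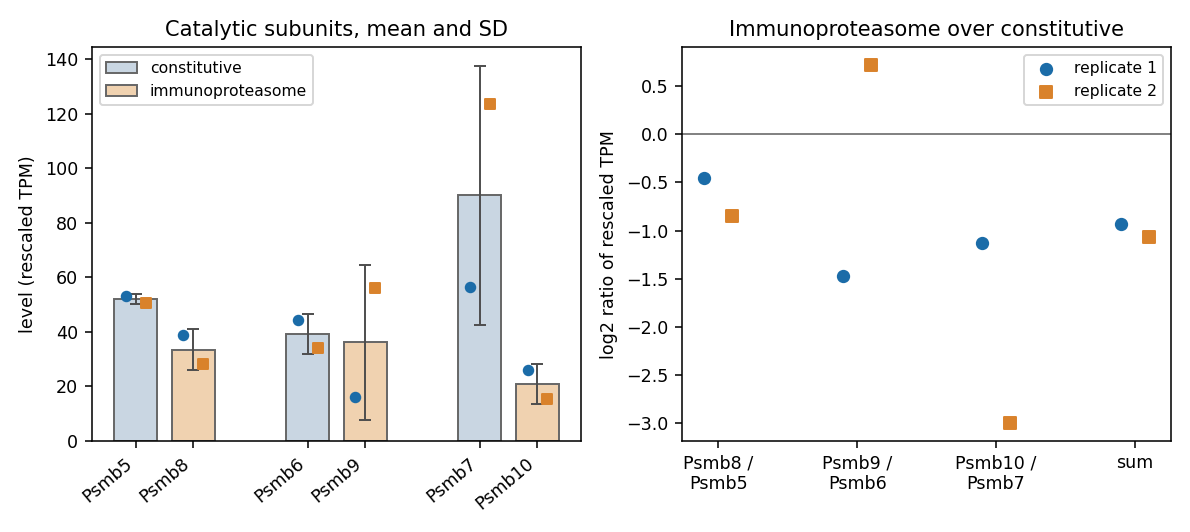
Left, rescaled TPM of the catalytic subunits, with bars for the mean, error bars for the SD (n = 2) and points for each library. Right, the log2 ratio of each immunoproteasome subunit to its constitutive partner and of the sums. The Psmb9 pair lies at -1.47 in replicate 1 (circles) and 0.72 in replicate 2 (squares), while the sums lie at -0.93 and -1.06.

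Per length, subunits of the 19S cap had a lower median level than those of the core. The 17 cap subunits had a median of 41.7 in replicate 1 and 41.0 in replicate 2, so the cap median was 1.63-fold and 2.44-fold lower than the core median (log2 ratio -0.99 ± 0.42, SD, n = 2). The cap median was nearly the same in both libraries, while the core median was 67.8 and 100.1. Without correction for length the order was not the same in both libraries: the median cap subunit had 231 and 308 counts and the median core subunit 203 and 433.5 (mean log2 ratio of CPM -0.15 ± 0.48, SD, n = 2).

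The 6 ATPases form the ring that unfolds the substrate. Psmc6 led them at 54.1 and 94.7 rescaled TPM. Psmc4 stood at 44.9 and 43.5, Psmc2 at 39.1 and 39.2, and Psmc1 at 39.6 and 38.2. Those 3 ATPases were within 2 rescaled TPM of themselves across the libraries. Psmc3 stood at 41.7 and 25.3, and Psmc5 was the lowest at 25.7 and 12.0.

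The other base subunits bind ubiquitin or scaffold the cap. Psmd4, a ubiquitin receptor, stood at 79.1 and 91.0 rescaled TPM. Psmd1 stood at 35.9 and 52.8, and its fellow scaffold Psmd2 at 30.2 and 17.8. The 2 scaffolds had opposite orders between the libraries, with Psmd1 higher in replicate 2 and Psmd2 higher in replicate 1.

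Among the 8 lid subunits, Psmd14, the enzyme that removes ubiquitin chains at the pore, had the highest mean at 112 and 79.8 rescaled TPM. Psmd6 stood at 74.8 and 98.4, Psmd7 at 51.8 and 48.0, and Psmd8 at 61.6 and 37.8. Psmd11 stood at 38.1 and 44.7 and Psmd12 at 28.2 and 41.0. Psmd3 had the lowest mean of the cap, at 10.5 and 14.7. The widest gap of any cap subunit was that of Psmd13, at 96.0 in replicate 1 and 16.3 in replicate 2. Of the replicate 1 level, 62.4% was assigned to a single transcript of 123 bases that held 2.64 counts, and with transcripts of at least 300 bases Psmd13 stood at 36.3 and 16.3.

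Assembly chaperones guide the subunits together and leave the finished particle. Among those of the cap, Psmd5 stood at 31.4 and 84.5 rescaled TPM, Psmd10 at 13.9 and 20.2, and Psmd9 at 9.84 and 5.295. Psmd5-202, a transcript of 555 bases, held 31.35% and 64.96% of the Psmd5 TPM on 13.95 and 119.87 counts. Psmd5 had 151 and 419 counts, a difference of 1.77-fold after scaling for library size. Among the core chaperones, Psmg2 stood at 23.7 and 41.6, Psmg1 at 12.4 and 21.8, Psmg4 at 21.8 and 10.6, and Psmg3 at 4.06 and 6.08. The pair of Psmg1 and Psmg2, which act as a dimer, were both higher in replicate 2, whereas Psmg3 and Psmg4, which form another dimer, had opposite orders. The median of the 4 core chaperones lay below the core median by 3.96-fold and 6.19-fold. Psmg3 had only 9 and 20 counts, the fewest of any detected member.

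Proteasome activators included the most abundant member of the set. Psme3 (chromosome 11, 101316213 to 101323537) encodes PA28 gamma, a nuclear activator that acts without ubiquitin, and stood at 816 and 852.5 rescaled TPM on 6522 and 10504 counts. It ranked 108 and 104 among the 21461 nuclear protein-coding genes and held 22.9% and 22.3% of the summed level of all members. Its level was 12.0-fold and 8.52-fold that of the core median (mean log2 ratio 3.34, and 4.80 in CPM without correction for length), and its TMM-scaled counts differed by only 0.04 on the log2 scale between the libraries. The leading transcript Psme3-201, a protein-coding one, carried 92.4% and 88.4% of its TPM. No exon of another gene covered over 1% of its exons.

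Psme1 and Psme2 encode PA28 alpha and beta, the interferon-inducible activator that works with the immunoproteasome, and lie 5911 bases apart on chromosome 14. Psme1 stood at 312 and 285 rescaled TPM and Psme2 at 75.7 and 104.5. Although the 2 proteins form 1 ring, Psme1 exceeded Psme2 by 4.12-fold and 2.72-fold. The larger part of the Psme1 level was assigned to Psme1-209, a transcript of 439 bases classed as a target of nonsense-mediated decay, with 57.8% and 55.8% of the gene's TPM. Protein-coding transcripts held 40.1% and 28.0% of the Psme1 TPM. With protein-coding transcripts alone rescaled to 1000000, another scale than that of 312 and 285, Psme1 stood at 164 and 106. Its excess over Psme2 on such transcripts was 2.80-fold and 1.25-fold. Psme2b, the near copy of Psme2, stood at 12.4 and 20.6, and how reads were divided between the 2 genes makes both values uncertain.

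Psme4, which encodes the large nuclear activator PA200, stood at 68.9 and 53.7 rescaled TPM on 752 and 1023 counts. Psme3 exceeded it by 11.8-fold and 15.9-fold. Psme1 and Psme2 together stood at 388 and 389 rescaled TPM, and Psme3 and Psme4 together at 885 and 906, a log2 ratio of -1.20 ± 0.02 (SD, n = 2). On protein-coding transcripts alone it was -2.40, and in counts without correction for length -3.47. Psmf1, the regulator PI31 that binds the core, stood at 101 and 78.6. Its leading transcript, Psmf1-203, is a retained-intron form with 47.3% and 62.9% of the TPM. Psmc3ip stood at 3.64 and 4.71, on 14 and 29 counts.

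Differences between the libraries were measured on counts scaled by TMM (trimmed mean of M-values, a library scaling), for the 47 members with a mean of at least 20 counts. Over 1.5-fold apart were 19 of 47 members (40.4%), against 38.9% of 9221 nuclear protein-coding genes, a share near the background. Of these, 11 were higher in replicate 2 (background 20.4%) and 8 in replicate 1 (background 18.6%). The median log2 ratio of replicate 2 over replicate 1 was 0.09 for the members and 0.01 for all genes, and the median size of the ratio 0.50 and 0.43.

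These members are given by role. The 38.9% set beside them covers genes of all depths past the filter. Of genes with a mean of 100 to 700 counts, 28.8% were past 1.5-fold, as were 12 of the 35 members in that range. Among the 14 standard core subunits, 5 were past 1.5-fold, against 38.9% of genes, and were higher in replicate 2, as were 20.4% of genes. These were Psma1 (255 and 902 counts, 2.26-fold), Psmb7 (195 and 674, 2.21-fold), Psmb4 (251 and 686, 1.75-fold), Psmb2 (136 and 348, 1.63-fold) and Psma6 (199 and 484, 1.55-fold). Among the 17 cap subunits, 6 were past 1.5-fold, against the same 38.9%, and 5 of these were higher in replicate 1, as were 18.6% of genes. Psmc5 (102 and 76 counts) was 2.10-fold higher there, Psmd13 (144 and 108) 2.09-fold, Psmd14 (358 and 308) 1.82-fold, Psmd2 (288 and 272) 1.66-fold and Psmd8 (260 and 254) 1.60-fold. Psmc6 (260 and 724 counts) was the cap subunit higher in replicate 2, by 1.78-fold. With DESeq2 size factors the counts by direction were the same, and on rescaled TPM they were 3 and 0 for the core and 1 and 5 for the cap, higher in replicate 2 and in replicate 1. The median log2 ratio was 0.16 for the core and -0.04 for the cap. Whether core and cap differed in this respect was not tested, since the design has 1 library on each side.

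Also past 1.5-fold were 2 of 3 immunoproteasome subunits, 2 of 3 cap chaperones, 3 of 3 core chaperones past the filter, and Psme2b. The share of all genes was 38.9%. Psmb9 had the largest ratio of the set, 3.14-fold higher in replicate 2, and Psmb10 was 1.65-fold higher in replicate 1. Psmg1 (35 and 105 counts), Psmd5 (151 and 419), Psmg2 (74 and 204) and Psme2b (30 and 77) were higher in replicate 2, by 1.92-fold, 1.77-fold, 1.76-fold and 1.64-fold. Psmg4 (29 and 23 counts) and Psmd9 (82 and 70) were higher in replicate 1, by 1.97-fold and 1.83-fold. None of the 4 activators and not Psmf1 passed 1.5-fold.

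Counting error alone could place some of these past the threshold. The 95% counting interval lay wholly past 1.5-fold for 8 of 47 members (17.0%), against 18.3% of genes. Higher in replicate 2 were Psma1, Psmb4, Psmb7, Psmb9 and Psmc6 (background 9.45%), and higher in replicate 1 were Psmc5, Psmd13 and Psmd14 (background 8.88%). The interval of the log2 ratio was 0.97 to 1.38 for Psma1 and 1.01 to 2.35 for Psmb9, the widest of these 8. The background share varied with depth. Of genes with a mean of 320 to 640 counts, 14.3% were over 1.5-fold apart, and 6 of the 15 members in that range were. From 160 to 320 counts the same values were 28.4% of genes and 4 of 15 members.

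**Figure D3:**
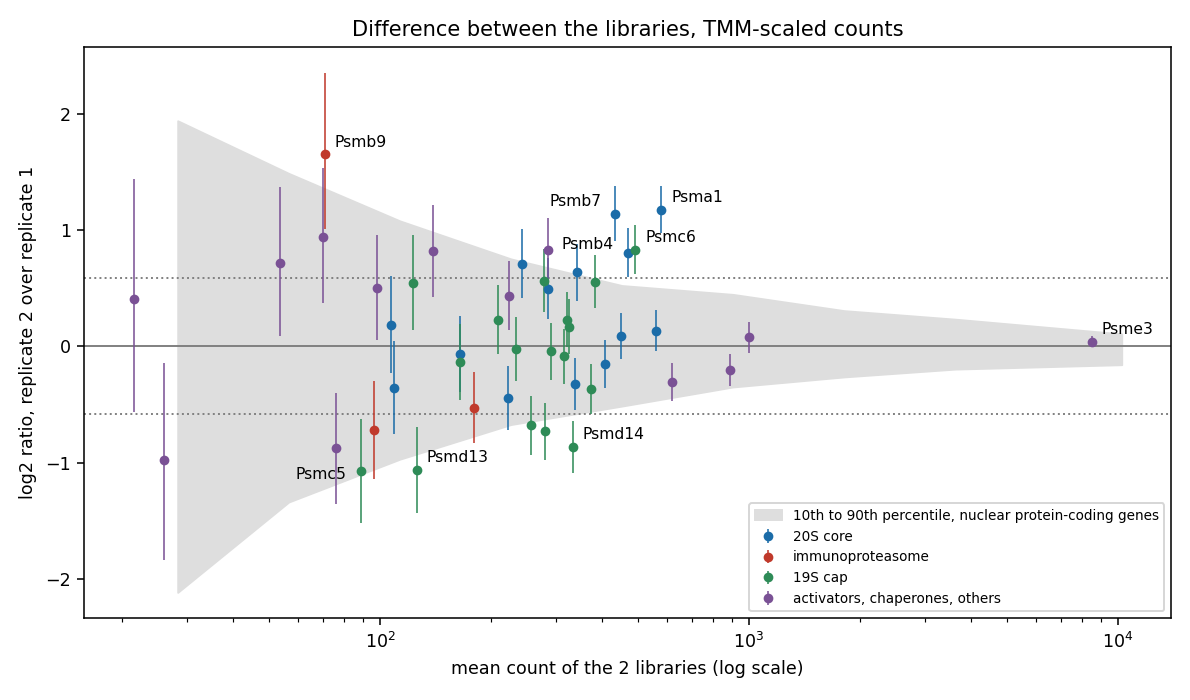
Log2 ratio of TMM-scaled counts, replicate 2 over replicate 1, against mean count (log scale) for the 47 members past the count filter, with 95% counting intervals. Grey marks the 10th to 90th percentile of nuclear protein-coding genes and dotted lines mark 1.5-fold. The named members are those whose interval lies past 1.5-fold, and Psme3 at 0.04.

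Several levels rested in part on transcripts that are not protein-coding. Over all members, protein-coding transcripts carried 80.7% of TPM in replicate 1 and 84.1% in replicate 2. Retained-intron forms carried 7.07% and 7.06%, and forms classed for nonsense-mediated decay 6.36% and 4.80%. The core held 88.7% and 95.8% of its TPM in protein-coding transcripts, and the cap 74.7% and 77.8%. The immunoproteasome subunits held 97.1% and 97.2%.

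The leading transcript differed between the libraries for 7 of 47 members (14.9%), against 25.0% of genes, and held under 60% of the TPM in either library for 14 of 47 (29.8%), against 30.5%. Psmd14 was led by the protein-coding Psmd14-201 (53.5%) in replicate 1 and by the processed transcript Psmd14-202 (60.01%) in replicate 2. Psmc4 was led by the retained-intron form Psmc4-205 (56.4%) in replicate 1 and by Psmc4-201 (77.2%) in replicate 2. Psmd6 showed the reverse order, with Psmd6-201 (54.8%) in replicate 1 and the retained-intron form Psmd6-204 (56.2%) in replicate 2. Psmc3 was led by the processed transcript Psmc3-206 (48.7%) in replicate 1 and by Psmc3-203 (58.6%) in replicate 2. In Psmd5 and Psmd10 the change was between protein-coding transcripts, and Psmd13 is described above.

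Other members had 1 leading transcript in both libraries that held under 60% in at least 1 of them. Psma1-201 held 57.8% of the Psma1 level in replicate 2, with the protein-coding Psma1-203 at 41.4%. Psmb4-201 held 57.2% in replicate 1, where a retained-intron form of 292 bases held 42.8% on 25.5 counts, and 91.3% in replicate 2. Psma3, Psmd1, Psmd11, Psme2 and Psme4 were each led by a protein-coding transcript in both libraries, and Psme1 and Psmf1 by the noncoding classes given above.

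**Figure D4:**
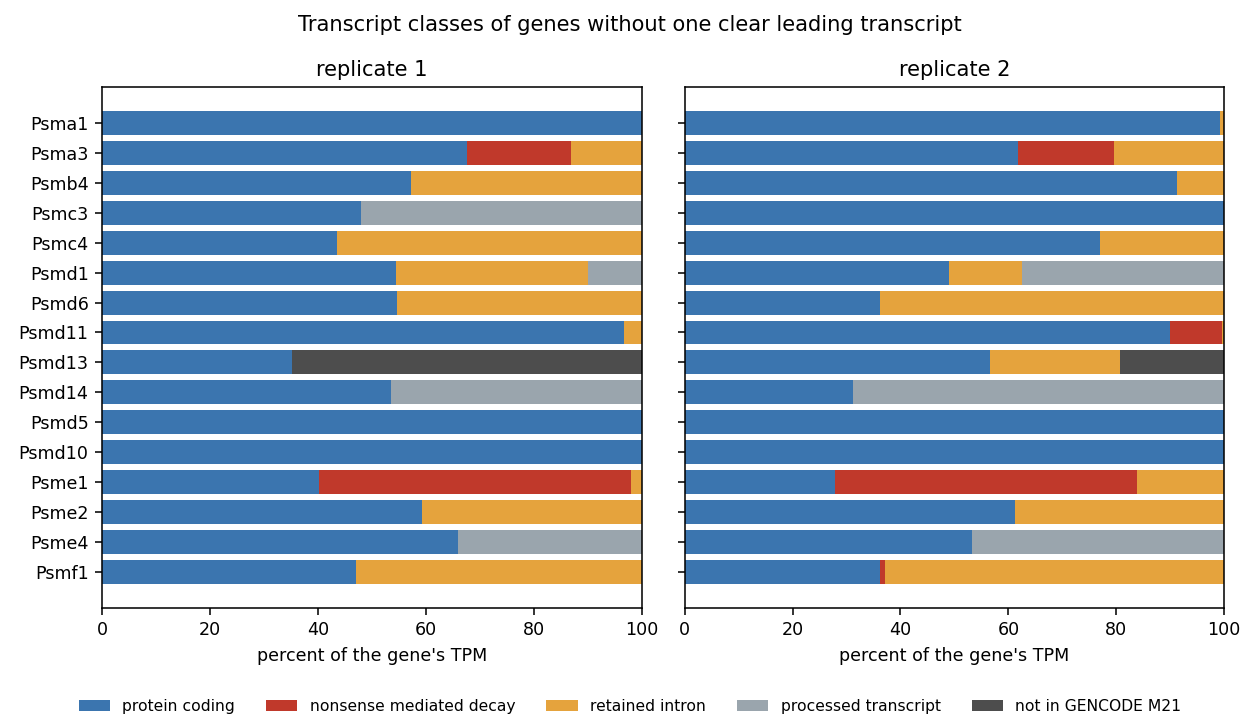
Share of each gene's TPM (percent) in classes of transcript, by library, for the members whose leading transcript differed or held under 60%. Psme1 is largely in the nonsense-mediated decay class in both panels, and Psmd14 moves from 53.5% to 31.2% protein-coding.

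Genes of the pathway outside the symbol rule were taken from lists. All 15 further proteasome genes were detected, with medians of 36.4 and 48.0 rescaled TPM, and 4 of 15 were over 1.5-fold apart (2 in each direction), against 38.9% of all genes. The highest were Zfand5, a factor that stimulates the 26S proteasome (212 and 185), the ubiquitin ligase Ubr4 (169 and 183), the deubiquitinase Usp14 (144 and 129.8) and Fbxo7, which binds PI31 (112 and 86.5). The lowest were Ube3c (8.34 and 8.24) and Zfand2a (2.99 and 2.35).

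All 15 ubiquitin, unfolding and shuttle genes were detected, with medians of 51.5 and 30.2 rescaled TPM. On TMM-scaled counts 0 of 15 were over 1.5-fold apart, against 38.9% of all genes past the count filter. That share was 28.4% at a mean of 160 to 320 counts and 14.3% at 320 to 640. The listed genes ranged from Ubqln4 (59 and 137 counts) to Ubb (6332 and 9277), so no single share matches their depth. In rescaled TPM, Bag6 (51.5 and 24.1) and Faf1 (9.41 and 25.3) were past 1.5-fold, in opposite directions. No test was made. The ubiquitin genes Ubb (1379 and 1273) and Rps27a (460 and 583) were among the highest. The lowest means were those of the shuttle factors Ubqln1 (15.6 and 15.9) and Ubqln4 (5.56 and 8.04).

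Of 16 genes of class I peptide supply and interferon response, 14 were detected, and 5 of the 15 past the count filter were over 1.5-fold apart (2 higher in replicate 2 and 3 in replicate 1), against 38.9% of all genes. B2m, the light chain of class I molecules, stood at 1681 and 1759.9, the chaperone Calr at 297 and 261, H2-D1, one of a family of similar genes that can share reads, at 229 and 119, and Canx at 101 and 104. The lowest means were those of Tap2 (5.35 and 0.39) and Nlrc5 (1.92 and 0.98). Of 10 genes that control proteasome genes, 9 were detected, and 3 of those 9 were over 1.5-fold apart (2 higher in replicate 2 and 1 in replicate 1), against the same 38.9%. Mafk stood at 84.9 and 73.9, Mafg at 81.1 and 67.3, Nfe2l2 at 53.7 and 93.3, and Nfya at 48.3 and 44.9. The lowest were Ngly1, at 17.3 and 12.6, and Maff, with 0 counts in both libraries.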

How the data were processed

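Total RNA of 2 erythroblast libraries was analysed from a gene table and a transcript table per library. Per the deposited read-me, the authors quantified a transcriptome alignment on mm10 with GENCODE M4 and spike-ins. Which aligner and quantifier were used is not given in the sources used here. Expected counts deposited by the authors are estimated reads that need not be whole, and they were rounded before scaling. The authors' TPM values sum over every row, mitochondrial rRNA and spike-ins included, so they were rescaled here to a sum of 1000000 over nuclear protein-coding genes. FPKM values, per the file headers, and the deposited posterior mean of TPM served as alternatives. Each transcript's share of its gene, in percent, was taken as deposited. The level that 3 counts are worth was taken from each gene's own expected count and rescaled TPM, and has no value for a gene without counts.

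Rows were matched by Ensembl identifier to GENCODE M21 on the same build for symbols, types and coordinates, and 884 rows had no match. Whether reads were counted by strand is not given in the sources used here, so genes with overlapping exons on opposite strands may share reads. TMM factors (0.962 and 1.04, over 10012 genes) came from edgeR 4.0.16, and alternative size factors (0.800 and 1.25) from DESeq2 1.42.0. The other steps used R 4.3.3, Python 3.11.15, pandas 2.3.3 and SciPy 1.17.1. Counting intervals are exact binomial intervals at 95%. With 1 group no test was run. The script for the count ratios was tested on simulated data, which says nothing of the reported values.

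The members and lists were chosen with earlier results of these data known. The rule named all catalytic, activator, regulator and chaperone members. From each other class it named the 3 highest and 2 lowest, from each pathway list up to 4 highest and 2 lowest, and in addition members over 1.5-fold apart or without a stable leading transcript. Some genes that the rule names are left out of the text. Alternatives covered the unit, the scaling, the filters, the pseudocount, the transcripts used and each library left out.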

Additional observations from a re-analysis of the deposited data

How the results depend on the processing

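Depth limits these values: a member with 24 counts in a library, such as Psmb9, has a wide counting interval, and n = 2 gives an SD of low precision. No paired analysis was possible because the libraries form a single group. The core median of 84.0 rescaled TPM was 149 when globins were left out of the total, 54.9 in CPM, 4.14 in deposited TPM and 3.725 in FPKM, which are other scales. The log2 ratio of cap to core was -0.15 in CPM, which are not corrected for length. The log2 ratio of Psme1 and Psme2 to Psme3 and Psme4 was -1.11 with the posterior mean, -3.47 in CPM and -2.40 on protein-coding transcripts. The number of members over 1.5-fold apart was 12 of 38 with a mean of at least 100 counts, against 23.4% of genes, and 5 of 47 at 2-fold, against 20.8%. With rescaled TPM it was 17, against 43.3% of genes. Members at a deposited TPM of 1 or more were 35, and no share of all genes at that cutoff is given beside this count. The mean of Psmb8 over Psmb5 changed sign to 0.15 in CPM (0.38 in replicate 1 and -0.08 in replicate 2), and Psmb9 over Psmb6 to 0.72 without replicate 1, against -1.47 without replicate 2. Leaving out each library gave 67.8 to 100.1 for the core median, -1.06 to -0.93 for immunoproteasome over constitutive subunits, -1.29 to -0.70 for cap over core, -1.22 to -1.19 for the activator ratio and 48 to 48 detected members. The count over 1.5-fold needs both libraries. Of all alternatives, 58 kept direction and stayed within the spread or limit set for the result, 12 went past it and 2 changed sign. Leaving out a library always moves a mean by less than the SD when n = 2. Alternatives of that kind could therefore not go past the SD, and their place among the 58 says nothing of stability. The filter of 10 counts removed no core or cap subunit, so it could not move their medians either. Within a wide spread, values still shifted: Psmb10 over Psmb7 was -3.00 without replicate 1 and -1.13 without replicate 2. Those with transcripts of at least 300 bases and those of single pairs were chosen after seeing the data.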
